A study of Saccharomyces cerevisiae with 8 samples.

Results

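The nuclear genes for the subunits of the mitochondrial respiratory chain and of the ATP synthase were followed in the budding yeast *Saccharomyces cerevisiae*. They were taken from a list of named subunits of the NADH and succinate dehydrogenases, cytochrome bc1, the cytochromes c, cytochrome oxidase and the ATP synthase, and each listed gene was matched to its probe set by the array's annotation. All 40 listed genes were found, each with 1 probe set, among the 5449 named genes that were tested. Total RNA was measured on 8 Affymetrix expression arrays, and the deposited values were read as log2 signals. The arrays came from a strain labelled *met30-6* (py283), which carries a temperature-sensitive allele of *MET30*, and from a strain labelled PY1, for which the sources used here give no genotype. *MET30* encodes the F-box protein of an SCF ubiquitin ligase best known for restraining the sulfur-pathway activator Met4. Both strains grew in YPDA, a rich glucose medium, at 25 °C until mid-log phase, and were sampled after 1 h at 25 °C (called RT, the permissive temperature) or at 35 °C (the non-permissive temperature). Each of the 4 groups held 2 arrays. Whether a pair of replicates came from different cultures is not stated in the labels. Every p-value therefore reflects the spread between these particular samples alone, and that spread may be technical.

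In yeast mitochondria, electrons enter the chain through single-protein NADH dehydrogenases on either face of the inner membrane and through succinate dehydrogenase, pass by way of ubiquinone to cytochrome bc1, and travel on cytochrome c to cytochrome oxidase, which reduces oxygen. Yeast has no proton-pumping complex I, so bc1 and cytochrome oxidase build the proton gradient that the ATP synthase uses. On glucose, budding yeast ferments and keeps many of these genes partly repressed. The activator Hap4, as part of the Hap2/3/4/5 complex, and the heme-dependent factor Hap1 are known to raise many of them when cells respire. Several subunits come as isoform pairs, of which one is known to be favoured with ample oxygen and heme and the other in hypoxia or stress.

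The arrays within a group were alike. Pearson's r between the replicates of a group, over all probe sets, lay between 0.9927 and 0.9951. Array medians lay between 10.973 and 11.088, and no further scaling was applied. Marker lists of the MATa and MATalpha mating types were used as a check on the strains. At 25 °C, 1 of 6 MATa markers was lower and 0 were higher in *met30-6*, and 0 of 4 MATalpha markers were called in either direction. At 35 °C, 3 of 6 MATa markers were higher in *met30-6*, with a median of 0.44, against 34% of all genes higher. The mean log2 level of the MATa list was 10.878 and 10.845 in PY1 at 25 °C, 10.573 and 10.753 in PY1 at 35 °C, 11.015 and 10.466 in *met30-6* at 25 °C, and 11.171 and 11.024 in *met30-6* at 35 °C. It was highest in heated *met30-6*, but that rank leans on *BAR1*, the dimmest marker. In PY1 *BAR1* read 4.475 and 5.163 at 25 °C, and 4.94 and 5.606 at 35 °C. In *met30-6* it read 7.033 and 3.386 at 25 °C, and 6.41 and 6.062 at 35 °C. *MFA1* and *STE6* also had their highest mean in heated *met30-6*, while *MFA2*, *STE2* and *ASG7* had theirs in PY1 at 25 °C. The mean of the MATalpha list ran from 5.895 to 6.665 over the 8 arrays, and no marker was at 0. With 2 arrays in a group, the number of arrays limits the precision of every value that follows.

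At 25 °C the respiratory subunits were lower in *met30-6* than in PY1 across the chain. Of the 40 genes, 30 were lower, 1 was higher and 9 were not called at an adjusted p under 0.05 in limma's moderated test. Of all 5449 genes tested, 5.95% were lower and 6.94% were higher in the same comparison. The median difference of the 40 genes was -0.42 on the log2 scale, while that of all genes was 0.006. Of the 40 differences, 39 were negative. Both *met30-6* arrays lay below both PY1 arrays for 37 of the 40 genes, against 27.4% of all genes, and above them for *COX5B* alone, against 28.4%. *NDE2* and *ATP1* were the genes whose groups overlapped. In bulk RNA, a lower level per cell and fewer cells that express a gene cannot be told apart.

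**Figure D1:**
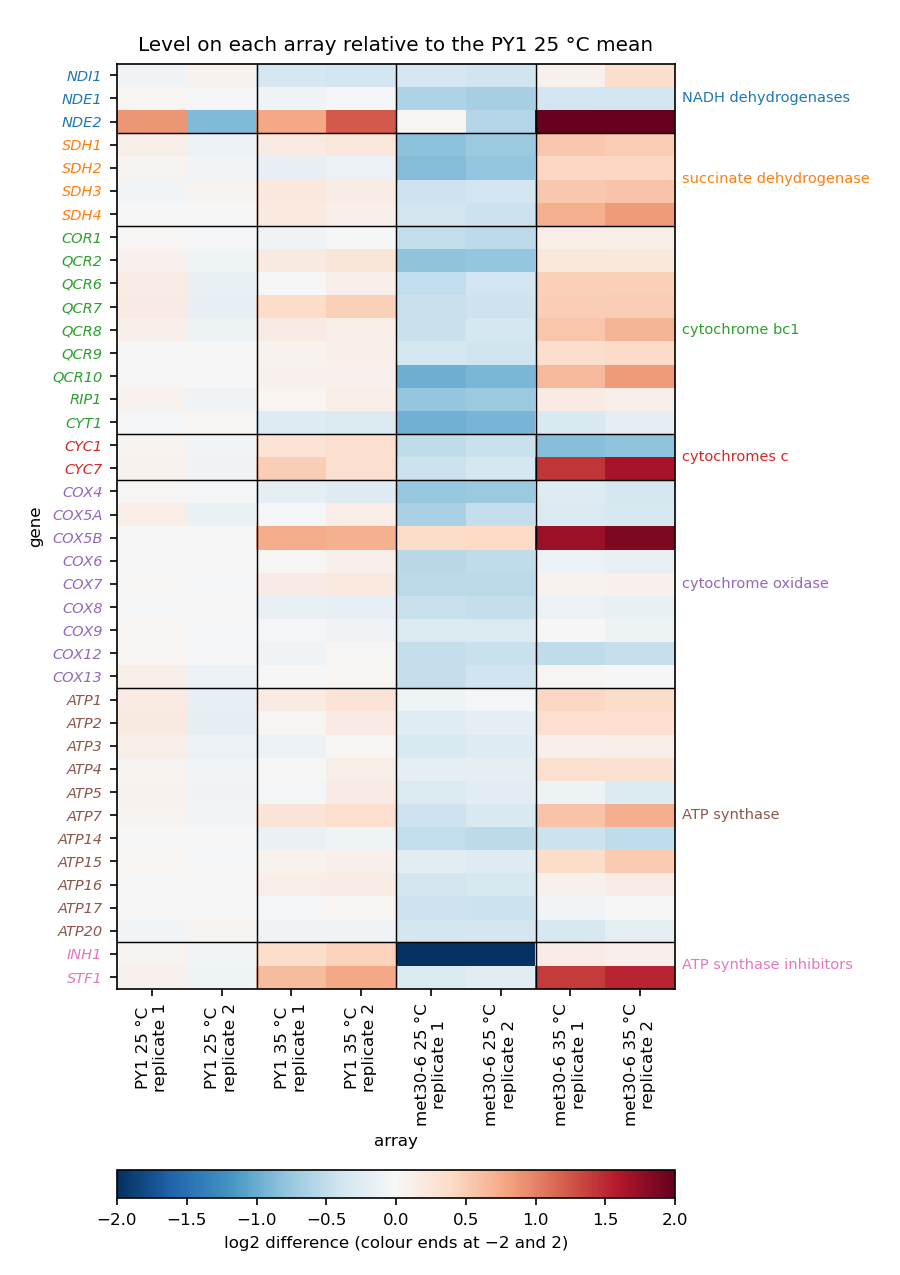
Colour map of the log2 level of each of the 40 genes (vertical axis, coloured by complex) on each of the 8 arrays (horizontal axis), as the difference from that gene's mean on the PY1 25 °C arrays, with colours ending at -2 and 2. The *met30-6* 25 °C columns are blue for nearly every gene, with array medians of -0.44 and -0.42, and the *met30-6* 35 °C columns have medians of 0.16 and 0.18.

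The lower level at 25 °C took in every subunit of succinate dehydrogenase and of cytochrome bc1. Succinate dehydrogenase, which passes electrons from the citric acid cycle to ubiquinone, had 4 of 4 subunits lower, with a median difference of -0.59. *SDH2* (YLL041C), the iron-sulfur subunit, read 11.99 and 11.86 in PY1 and 11.06 and 11.14 in *met30-6*. Its difference was -0.83 ± 0.06 (SE, adjusted p = 0.000285, limma), which is 1.78-fold lower. The flavoprotein subunit *SDH1* was 1.72-fold lower (adjusted p = 0.00143), and the membrane anchors *SDH3* and *SDH4* differed by -0.40 each. For all 4 genes the *met30-6* arrays lay below the PY1 arrays.

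Cytochrome bc1 had 9 of 9 subunits lower in *met30-6* at 25 °C, with a median of -0.51. *CYT1* (YOR065W), which encodes the heme-bearing cytochrome c1, read 11.82 and 11.88 in PY1 against 10.89 and 10.92 in *met30-6*, a difference of -0.94 ± 0.06 (adjusted p = 0.000112, limma). *QCR10* (YHR001W-A), a small supernumerary subunit, read 12.34 on both PY1 arrays against 11.36 and 11.43, a difference of -0.94 ± 0.08. The arrays of each strain were tight for both genes, and the gap between strains was many times the replicate spread. The core subunit *QCR2* differed by -0.79 and the Rieske iron-sulfur protein *RIP1* by -0.76. The other core subunit *COR1* differed by -0.51, and *QCR6*, *QCR7*, *QCR8* and *QCR9* by -0.44 to -0.38.

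Of the 9 nuclear subunits of cytochrome oxidase, 8 were lower in *met30-6* at 25 °C. *COX4* (YGL187C), a subunit needed for the enzyme to assemble, read 12.66 and 12.62 in PY1 and 11.89 and 11.90 in *met30-6*, a difference of -0.74 ± 0.06 (adjusted p = 0.000312, limma). *COX6*, *COX7*, *COX8*, *COX9*, *COX12* and *COX13* differed by -0.54 to -0.30, and *COX5A* by -0.57. The exception was *COX5B* (YIL111W), the hypoxic isoform of subunit V, which read 10.40 and 10.42 in PY1 and 10.78 and 10.80 in *met30-6*. It was higher by 0.38 ± 0.06 (adjusted p = 0.0106). Its call ended without either of the *met30-6* 25 °C arrays, at 0.39 (adjusted p = 0.0609) without replicate 1 and 0.37 (adjusted p = 0.0697) without replicate 2, where the remaining array is assumed to vary like the other groups.

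The ATP synthase had a smaller share of subunits called lower at 25 °C than the complexes above, with the values as deposited. Of its 11 subunits, 5 were lower and 6 were not called, with a median of -0.28. The lower ones were *ATP7* and *ATP14* of the peripheral stalk, *ATP16* of the central stalk, and *ATP17* and *ATP20* of the membrane sector. *ATP14* (YLR295C) read 12.36 on both PY1 arrays and 11.88 and 11.84 in *met30-6*, a difference of -0.50 ± 0.05 (adjusted p = 0.00114, limma). Not called were *ATP1* (alpha), *ATP2* (beta), *ATP3* (gamma) and *ATP15* (epsilon) of F1, and *ATP4* and *ATP5* of the peripheral stalk. For *ATP1*, the alpha subunit, the difference was -0.06 with a 95% interval from -0.32 to 0.20, and the PY1 arrays at 13.47 and 13.13 spanned those of *met30-6* at 13.22 and 13.27. With the arrays quantile normalised, 10 of the 11 subunits were lower. Whether the ATP synthase differed from the respiratory complexes was not tested.

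The gene with the largest difference at 25 °C was *INH1* (YDL181W), the small protein that binds the F1 head and stops the ATP synthase from hydrolysing ATP. It read 11.88 and 11.77 in PY1 at 25 °C, 12.18 and 12.29 in PY1 at 35 °C, 9.85 and 9.85 in *met30-6* at 25 °C, and 11.97 and 11.92 in *met30-6* at 35 °C. The *met30-6* 25 °C arrays stood far below the other 6. The strain difference at 25 °C was -1.97 ± 0.06 (adjusted p = 6.36e-06, limma), which is 3.93-fold lower. *STF1*, its paralog, read 12.04 and 11.87 in PY1 against 11.67 and 11.74, a difference of -0.25 that was not called (adjusted p = 0.102).

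The NADH dehydrogenases were uneven at 25 °C. *NDE1* (YMR145C), the main external enzyme, which takes electrons from cytosolic NADH, read 12.70 and 12.63 in PY1 and 12.04 and 12.00 in *met30-6*, a difference of -0.64 ± 0.05 (adjusted p = 0.00039, limma). *NDI1*, the internal enzyme, differed by -0.37 and was not called (adjusted p = 0.0527). *NDE2*, the minor external isoform, was the dimmest of the 40 probe sets and the least precise, with PY1 25 °C arrays at 6.82 and 5.04, and its difference of -0.28 had a 95% interval from -1.54 to 0.99.

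Of the 30 lower calls at 25 °C, 19 stood whichever of the 8 arrays was left out. The count of lower calls in those fits was between 20 and 29, and the median stayed between -0.50 and -0.42. The calls of *QCR6* and *QCR7* were lost in 7 of the 8 fits and those of *ATP7* and *CYC7* in 6, with *CYC7* at -0.39 (adjusted p = 0.045) over all arrays. Without *met30-6* 25 °C replicate 1, *COX5A* was not called (-0.48, adjusted p = 0.0915), and without replicate 2, *SDH4* was not called (-0.37, adjusted p = 0.0672).

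At 35 °C the strains no longer differed in one direction. Of the 40 genes, 16 were higher in *met30-6*, 8 were lower and 16 were not called, against 34% of all genes higher and 32.7% lower. The median was 0.11, and that of all genes 0.018. Both *met30-6* arrays lay above both PY1 arrays for 21 genes and below them for 10, against 43.7% and 41.2% of all genes. With quantile normalised arrays, 11 genes were higher and 14 lower, and the median was -0.06, so the balance of directions at this temperature depended on the scaling.

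**Figure D2:**
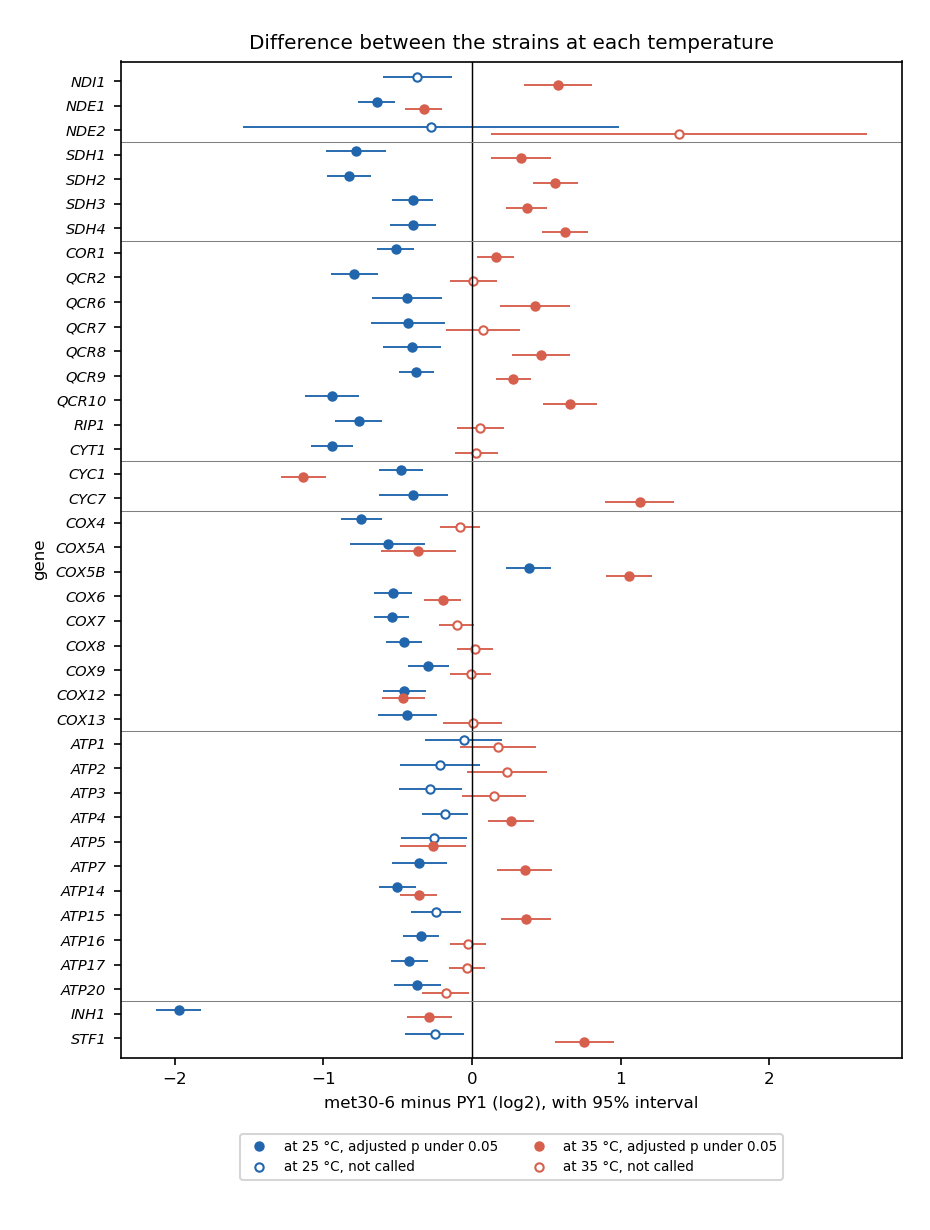
Difference between the strains (*met30-6* minus PY1, log2, horizontal axis) for each of the 40 genes (vertical axis) at 25 °C and at 35 °C, with 95% intervals and filled points for an adjusted p under 0.05. At 25 °C 39 of the 40 points lie left of 0, and at 35 °C 26 lie right of 0 and 14 left.

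Succinate dehydrogenase and bc1 were the groups whose called subunits all lay higher in *met30-6* at 35 °C, and this held under both other scalings. All 4 *SDH* genes were higher, with a median of 0.47. *SDH2* read 11.76 and 11.81 in PY1 and 12.35 and 12.34 in *met30-6*, a difference of 0.56 ± 0.06 (adjusted p = 0.000253, limma), the reverse of its order at 25 °C. The call of *SDH1* (0.33) had an adjusted p of 0.0627 when PY1 35 °C replicate 1 was left out (0.30) and of 0.0538 when *met30-6* 35 °C replicate 1 was left out (0.31). In bc1, *COR1*, *QCR6*, *QCR8*, *QCR9* and *QCR10* were higher, by 0.16 to 0.66. *COR1*, the smallest of these, was not called without any of 5 arrays and turned to -0.007 with quantile normalisation (adjusted p = 0.903). *CYT1* differed by 0.03 with a 95% interval from -0.11 to 0.17, after the 25 °C difference of -0.94.

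Cytochrome oxidase and the ATP synthase were mixed at 35 °C. *COX5B* was higher by 1.06 ± 0.06, while *COX12*, *COX5A* and *COX6* differed by -0.46, -0.36 and -0.20. *COX12* (YLR038C), a subunit that faces the intermembrane space, read 12.69 and 12.80 in PY1 and 12.27 and 12.30 in *met30-6*, a difference of -0.46 ± 0.06 (adjusted p = 0.000536, limma). It stood at nearly the same distance as at 25 °C. The lower call of *COX5A* (-0.36) ended without PY1 35 °C replicate 2 and without either *met30-6* 35 °C array, with the highest adjusted p at 0.11. In the ATP synthase, *ATP4*, *ATP7* and *ATP15* were higher, by 0.26 to 0.36, and *ATP5* and *ATP14* were lower, at -0.26 and -0.36. The call of *ATP5* was lost without any of 4 arrays. With quantile normalisation, 1 subunit of cytochrome oxidase was higher and 6 were lower, and 0 of the ATP synthase were higher and 5 lower.

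Of the 30 genes that were lower at 25 °C, 11 were higher at 35 °C, 7 were lower again and 12 were not called. *COX5B* was higher at both temperatures. The 7 lower at both were *NDE1*, *CYC1*, *COX5A*, *COX6*, *COX12*, *ATP14* and *INH1*. The differences at the 2 temperatures come from separate arrays, but their calls share an estimate of the spread made from all arrays.

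In PY1, the shift to 35 °C moved few of the subunits. Of the 40 genes, 10 rose, 3 fell and 27 were not called, against 26.2% of all genes rising and 10.4% falling, so the share that rose was near the background. The median change was 0.085, close to the 0.075 of all genes. Both heated arrays lay above both 25 °C arrays for 18 genes and below them for 7, against 45% and 22.8% of all genes. *COX5B* rose most among the called genes, from 10.40 and 10.42 to 11.16 and 11.12, a change of 0.73 ± 0.06 (adjusted p = 0.000437, limma). *STF1* rose by 0.70, *QCR7* by 0.42, *INH1* and *CYC7* by 0.41 each, *CYC1* by 0.31 and *ATP7* by 0.30. The genes that fell were *NDI1* (-0.36), *CYT1* (-0.28) and *COX4* (-0.21).

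Most of these PY1 calls were not stable when an array was left out. The calls of *SDH3*, *QCR2* and *COX7* were lost even without any of the *met30-6* arrays, which enter only the estimate of the spread. Of the 10 rises, 3 stood in all 8 fits that left out an array, and of the 3 falls, 0 did. The counts were 6 higher and 0 lower without PY1 25 °C replicate 2. Leaving out PY1 35 °C replicate 1 gave 4 and 2, and leaving out its replicate 2 gave 4 and 0. PY1 25 °C replicate 1 lay above replicate 2 for 32 of the 40 genes, as it did for 67.4% of all genes. With array medians centred, 7 rose and 6 fell. With quantile normalisation, 8 rose and 9 fell, and the median turned to -0.02. Over all genes, 71.5% of the calls were rises as deposited, 58.3% with centred medians and 49.8% with quantile normalisation.

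In *met30-6*, the same shift raised the subunits together. Of the 40 genes, 34 rose, 1 fell and 5 were not called, against 38.8% of all genes rising and 29.3% falling. The median change was 0.63, and that of all genes was 0.074. Both 35 °C arrays lay above both 25 °C arrays for 36 genes, against 48.6% of all genes, and below them for *CYC1* alone, against 37.1%. Of the 34 rises, 33 stood whichever array was left out, and the median stayed between 0.61 and 0.67. With quantile normalisation the median was 0.44, and *COX12* joined *CYC1* among 2 genes that fell.

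**Figure D3:**
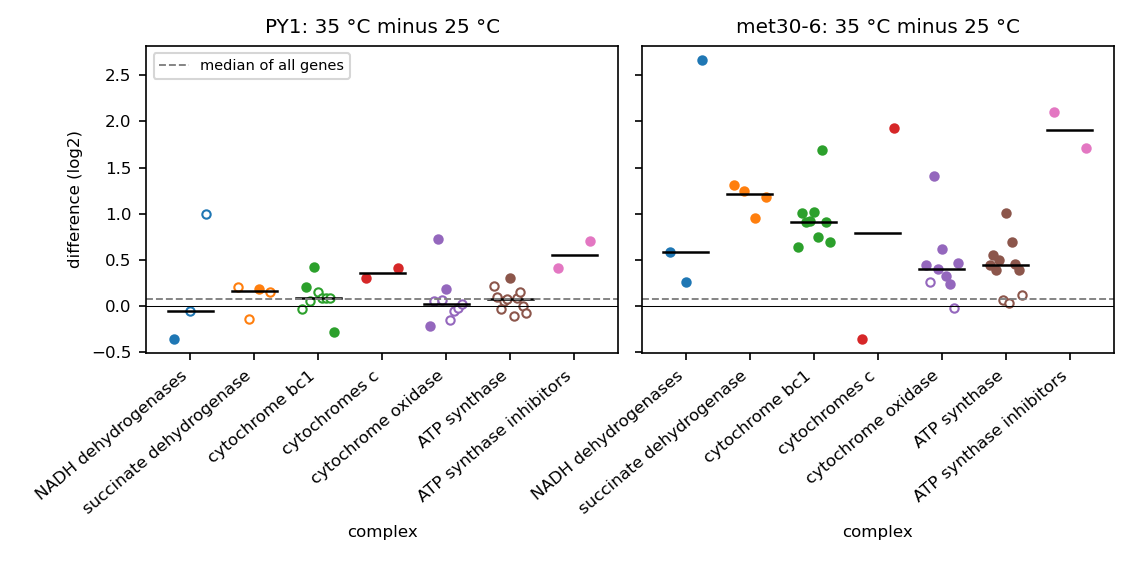
Change from 25 to 35 °C (log2, vertical axis) of the 40 genes grouped by complex (horizontal axis) in PY1 and in *met30-6*, with filled points for an adjusted p under 0.05, black bars at each complex's median and a dashed line at the median of all genes. In PY1 most points lie near the dashed line, while in *met30-6* the bc1 and succinate dehydrogenase medians are 0.91 and 1.21.

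Succinate dehydrogenase and bc1 rose in full in *met30-6*, with 4 of 4 and 9 of 9 subunits and median changes of 1.21 and 0.91. *SDH1* (YKL148C) went from 10.89 and 10.96 to 12.25 and 12.22, a change of 1.31 ± 0.08 (adjusted p = 1.98e-05, limma), which is 2.48-fold. *QCR10* went from 11.36 and 11.43 to 12.98 and 13.19, a change of 1.69 ± 0.08 or 3.23-fold (adjusted p = 5.3e-06). In neither gene did an array at 35 °C come near those at 25 °C. *SDH2*, *SDH4*, *QCR2* and *QCR8* rose by 1.01 to 1.25, and the smallest rise among these 13 genes was that of *COR1*, at 0.64.

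In cytochrome oxidase 7 of 9 genes rose, with a median of 0.40, and *COX5A* and *COX12* were not called. In the ATP synthase 8 of 11 rose, with a median of 0.45, and *ATP5*, *ATP14* and *ATP20* were not called. Differences between the complexes were not tested. *ATP7* (YKL016C), a subunit of the peripheral stalk, went from 12.18 and 12.28 to 13.16 and 13.32, a change of 1.01 ± 0.08 (adjusted p = 4.3e-05, limma). The other 7 changed by 0.39 to 0.69. The inhibitors *INH1* and *STF1* rose by 2.10 and 1.71, which are 4.28-fold and 3.27-fold, and after the shift *INH1* differed by -0.29 from PY1 at 35 °C, against -1.97 at 25 °C.

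Across the 4 groups, the lowest mean was that of *met30-6* at 25 °C in 37 of the 40 genes, and in 32 of these both its arrays lay below the other 6. Over all genes these shares were 20.5% and 9.98%. The highest mean was that of *met30-6* at 35 °C in 24 genes, and in 20 of these both its arrays lay above the other 6, against 43.3% and 35.9% of all genes. PY1 at 25 °C and PY1 at 35 °C had the highest mean in 8 genes each, against 14.8% and 27.8% of all genes. Measured from the PY1 25 °C mean, the median shift of the 40 genes was 0.03 and 0.11 on the PY1 35 °C arrays, -0.44 and -0.42 on the *met30-6* 25 °C arrays, and 0.16 and 0.18 on the *met30-6* 35 °C arrays.

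The response to 35 °C differed between the strains for most of the genes. The interaction, which is the change in *met30-6* minus the change in PY1, was positive and called for 31 genes and negative and called for 1, *CYC1*. Of all genes, 23.7% were called positive and 24.5% negative. The median of the 40 genes was 0.63, against 0.002 for all genes, and 37 of the 40 values were positive. The MATa markers had 4 of 6 positive and called, with a median of 0.57, and the MATalpha markers 0 of 4, and their part in the result was not tested. The interaction is also the strain difference at 35 °C minus that at 25 °C, and it uses the same arrays as the comparisons above, so it is not a separate measurement. Of the 31 genes called positive, 16 were higher in *met30-6* at 35 °C, 3 were lower and 12 were not called there.

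By complex, the positive interactions took in 4 of 4 succinate dehydrogenase genes (median 1.07), 9 of 9 bc1 genes (median 0.82), 7 of 9 cytochrome oxidase genes (median 0.44) and 6 of 11 ATP synthase genes (median 0.39). *INH1* had the largest called value, 1.69 ± 0.09 (adjusted p = 4.84e-05, limma), followed by *QCR10* at 1.60 ± 0.11 and *CYC7* at 1.52 ± 0.14. *NDI1*, *CYT1* and *COX4* moved in opposite directions, falling in PY1 and rising in *met30-6*. *NDI1* (YML120C) went from 10.93 and 11.08 to 10.66 and 10.62 in PY1, and from 10.66 and 10.61 to 11.09 and 11.35 in *met30-6*, an interaction of 0.94 ± 0.14 (adjusted p = 0.00163). The PY1 falls of *NDI1* and *CYT1* were among those lost without an array, with adjusted p up to 0.118 and 0.0691. Near 0 were *COX12*, at -0.005 with a 95% interval from -0.21 to 0.20, and *ATP5*, at -0.003 with an interval from -0.32 to 0.31. Of the 31 positive calls, 25 stood whichever array was left out.

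Cytochrome c is made from *CYC1* (YJR048W), the main aerobic form known as iso-1, and *CYC7* (YEL039C), the iso-2 form favoured in hypoxia and stress. *CYC1* read 12.98 and 12.86 in PY1 at 25 °C, 13.19 and 13.26 in PY1 at 35 °C, 12.41 and 12.48 in *met30-6* at 25 °C, and 12.07 and 12.11 in *met30-6* at 35 °C. It was the one gene whose arrays in heated *met30-6* were the lowest of all 4 groups by a clear margin. It rose by 0.31 in PY1 (adjusted p = 0.0103) and fell by 0.35 in *met30-6* (adjusted p = 0.0022), with an interaction of -0.66 ± 0.09 (adjusted p = 0.00124, limma). The PY1 rise was not called without PY1 35 °C replicate 2 (0.28, adjusted p = 0.0642). At 35 °C *CYC1* was 2.20-fold lower in *met30-6* than in PY1 (adjusted p = 1.1e-05).

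*CYC7* moved the other way with the shift in *met30-6*, while in PY1 it rose as *CYC1* did. It read 10.71 and 10.56 in PY1 at 25 °C, 11.13 and 10.96 in PY1 at 35 °C, 10.20 and 10.28 in *met30-6* at 25 °C, and 12.07 and 12.28 in *met30-6* at 35 °C. Heated *met30-6* stood above all the other arrays. The change in *met30-6* was 1.93 ± 0.10, or 3.82-fold (adjusted p = 7.92e-06, limma), against 0.41 ± 0.10 in PY1 (adjusted p = 0.0182), a call lost without PY1 25 °C replicate 2, and also when PY1 35 °C replicate 1 was left out. At 35 °C *CYC7* was 2.19-fold higher in *met30-6*.

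**Figure D4:**
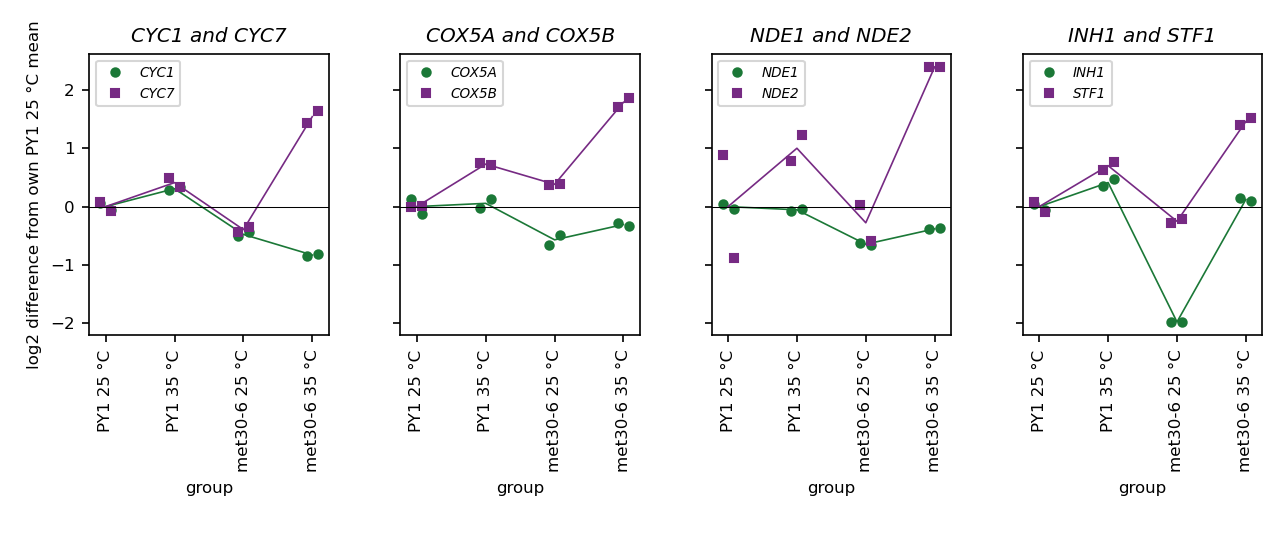
Log2 level on each array, as the difference from the same gene's mean on the PY1 25 °C arrays (vertical axis), in the 4 groups (horizontal axis) for the pairs *CYC1* and *CYC7*, *COX5A* and *COX5B*, *NDE1* and *NDE2*, and *INH1* and *STF1*, with a point for each of the 2 arrays. In *met30-6* at 35 °C *CYC7* and *COX5B* lie well above 0, while *CYC1* and *COX5A* lie below it.

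Subunit V of cytochrome oxidase is encoded by *COX5A* (YNL052W), used with ample oxygen, and *COX5B*, which is known to be repressed by Rox1 when heme is available. *COX5A* read 12.69 and 12.42, 12.53 and 12.69, 11.90 and 12.07, and 12.27 and 12.23 in PY1 at 25 and 35 °C and *met30-6* at 25 and 35 °C. Its changes with temperature were not called in PY1 (0.06, adjusted p = 0.719) or in *met30-6* (0.26, adjusted p = 0.0633), and its interaction of 0.21 had a 95% interval from -0.15 to 0.56. *COX5B* read 10.40 and 10.42, 11.16 and 11.12, 10.78 and 10.80, and 12.12 and 12.28 in the same order. No 2 groups of *COX5B* overlapped, and heated *met30-6* was the highest. It rose by 1.40 ± 0.06 in *met30-6*, or 2.65-fold (adjusted p = 5.76e-06, limma), and by 0.73 in PY1, with an interaction of 0.68 ± 0.09 (adjusted p = 0.00126).

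Of the external NADH dehydrogenases, *NDE1* was lower in *met30-6* at both temperatures, at -0.64 and -0.33, and its interaction of 0.32 (adjusted p = 0.0121) was lost without *met30-6* 25 °C replicate 2 (0.30, adjusted p = 0.0527). *NDE2* (YDL085W) read 6.82 and 5.04 in PY1 at 25 °C, 6.71 and 7.15 in PY1 at 35 °C, 5.97 and 5.34 in *met30-6* at 25 °C, and 8.32 on both arrays of *met30-6* at 35 °C. Heated *met30-6* stood above the other 6 arrays, and those 6 overlapped between groups. The rise in *met30-6* was called at 2.67 ± 0.53 (adjusted p = 0.00373, limma), and the interaction of 1.67 ± 0.75 was not (adjusted p = 0.109). *STF1* (YDL130W-A) read 12.59 and 12.73 in PY1 at 35 °C and 13.36 and 13.47 in *met30-6* at 35 °C. It was 1.69-fold higher in *met30-6* there, where *INH1* was 1.22-fold lower, and both had positive interactions, of 1.01 and 1.69.

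Lists of assembly factors, translation activators, cofactor pathways and regulators were set beside the subunits, and none of their genes is among the 40. At 25 °C, where 5.95% of all genes were lower and 6.94% higher in *met30-6*, these lists had the following counts. Of 26 cytochrome oxidase assembly factors, 9 were higher and 1 was lower in *met30-6* at 25 °C, with a median of 0.14, and the number higher fell to between 0 and 4 when an array was left out. Of 7 bc1 and cytochrome c assembly factors, 0 were called in either direction. Of 7 measured succinate dehydrogenase assembly factors and paralogs, 1 was higher. Of 11 coenzyme Q synthesis genes, 0 were called, with a median of 0.01. Of 7 ATP synthase assembly factors, 1 was higher, and of 14 translation activators of mitochondrial mRNAs, 1 was higher and 1 lower. Below 0 lay the medians of the other electron donors and acceptors (-0.18, 1 of 5 higher and 1 lower), the regulators (-0.11), the other subunits and supercomplex factors (-0.085, 1 of 6 higher and 1 lower) and the carriers (-0.037). No difference between these lists and the subunits was itself tested.

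With the shift to 35 °C, the lists differed in how many genes rose, beside 38.8% of all genes in *met30-6* and 26.2% in PY1. The interaction was called positive for 23.7% and negative for 24.5% of all genes. Among the succinate dehydrogenase assembly factors and paralogs, 6 of 7 rose in *met30-6*, with a median of 1.04, and 4 of 7 rose in PY1. A positive interaction was called for 6 of them. *SDH6*, an assembly factor for the iron-sulfur subunit, rose by 1.86 in *met30-6* and 0.58 in PY1, with an interaction of 1.28 (adjusted p = 0.00033, limma). In coenzyme Q synthesis 8 of 11 rose in *met30-6* and 2 in PY1. A positive interaction was called for 7 of these 11 genes, led by *COQ4* at 0.93 and *COQ6* at 0.78. *COQ2*, which attaches the isoprenoid tail, had an interaction of -0.35. Cytochrome oxidase assembly factors rose in both strains, 18 of 26 in PY1 and 20 of 26 in *met30-6*, and 2 had a positive interaction, *COX15* (0.52), which makes heme a, and *COX18* (0.61), which inserts Cox2. The number was 5 with centred medians and 6 with quantile normalisation, and *COX10*, which acts before *COX15* in that synthesis, had -0.33. In *met30-6*, 3 of 7 ATP synthase assembly factors rose, with a median of -0.04, and 4 of 14 translation activators, with a median of 0.11. In PY1, 1 of 7 and 1 of 14 rose. All 5 other electron donors and acceptors rose in *met30-6*, 4 of 5 rose in PY1, and 4 had a positive interaction. Among them, *GUT2*, the mitochondrial glycerol-3-phosphate dehydrogenase, had 1.19 (adjusted p = 0.000105) and *CYB2*, the lactate dehydrogenase that feeds cytochrome c, had 1.72 (adjusted p = 0.00163).

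**Figure D5:**
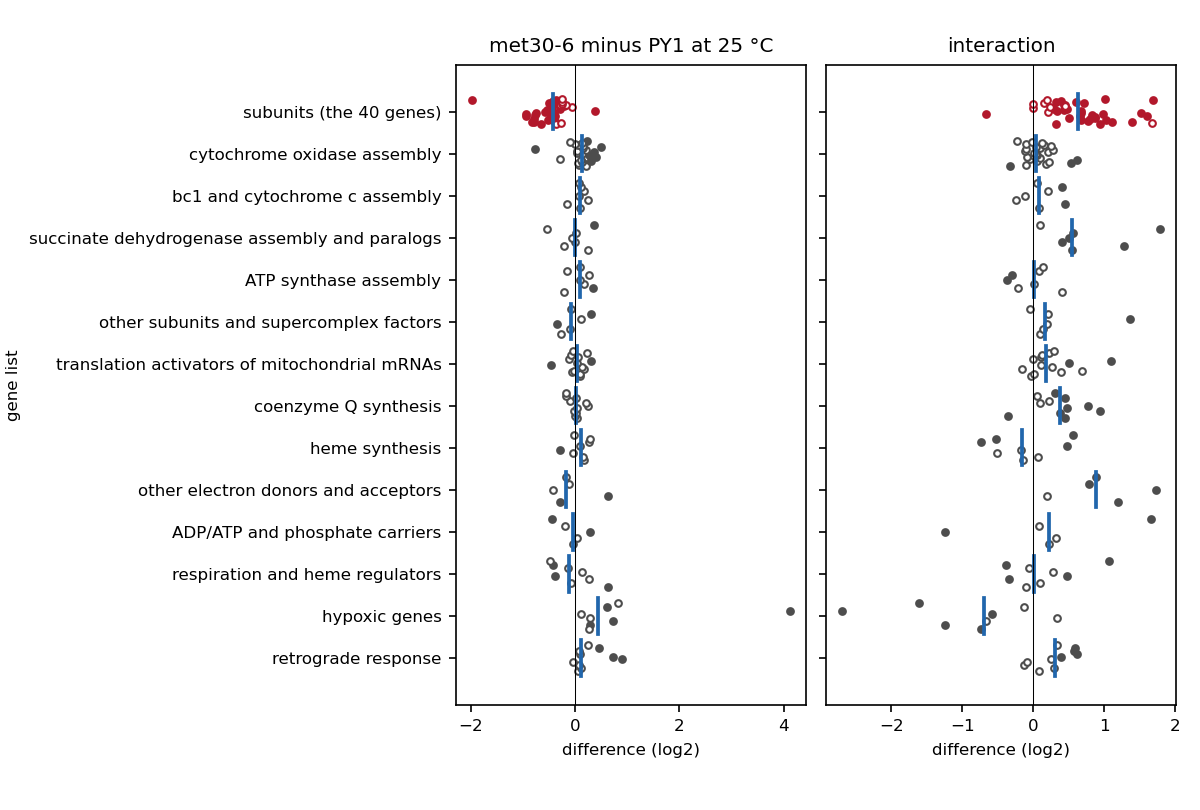
Difference between strains at 25 °C (left, log2) and the interaction (right, log2) for the 40 subunit genes and all measured lists of related genes other than the mating-type markers (vertical axis), with filled points for an adjusted p under 0.05 and blue bars at each list's median. At 25 °C the subunits have a median of -0.42 and the lists medians from -0.18 to 0.44, and in the interaction the lists' medians run from -0.70 for the hypoxic genes to 0.88 for the other electron donors, beside 0.63 for the subunits.

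Of the 8 regulators of respiration and heme-dependent genes, 1 was higher and 2 were lower in *met30-6* at 25 °C, against 6.94% and 5.95% of all genes. Of the 8, 2 had a positive and 2 a negative interaction, near the background of 23.7% and 24.5% of all genes. *HAP4* (YKL109W) was lower in *met30-6* at 25 °C, as most of the subunits were. It read 10.85 and 10.78 in PY1 at 25 °C, 10.54 and 10.53 in PY1 at 35 °C, 10.47 and 10.38 in *met30-6* at 25 °C, and 10.61 and 10.62 in *met30-6* at 35 °C. PY1 at 25 °C was the highest group and *met30-6* at 25 °C the lowest. The *HAP4* difference at 25 °C was -0.39 (adjusted p = 0.00528, limma). The gene fell by 0.28 in PY1 and rose by 0.19 in *met30-6* with the shift, with an interaction of 0.47 (adjusted p = 0.00301). Leaving out PY1 35 °C replicate 2 ended the PY1 fall (-0.27, adjusted p = 0.053), and the rise in *met30-6* ended without any of 3 arrays, with adjusted p up to 0.13. *HAP1* was higher by 0.63 in *met30-6* at 25 °C. *HAP2* was called in 0 of the 5 comparisons. *HAP5* rose by 0.31 in *met30-6*, a call lost without either replicate 1 of that strain, and *HAP3* had an interaction of -0.34 (adjusted p = 0.0379) that was lost without 7 of the 8 arrays. *CAT8* (YMR280C), an activator of genes for growth without glucose, rose by 2.25 in PY1 and 3.31 in *met30-6*, and its interaction of 1.06 (adjusted p = 0.0325) was lost without any of 5 arrays. Messenger levels say nothing here of the activity of these factors.

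The hypoxic list holds other genes that, like *COX5B*, are known to be held down when oxygen and heme are ample. *ROX1*, whose product represses hypoxic genes, fell by 0.24 in *met30-6* with the shift, a call lost without any of that strain's 4 arrays, and its interaction of -0.07 was not called. *MOT3*, which encodes another repressor of such genes, differed by -0.42 in *met30-6* at 25 °C (adjusted p = 0.00885), a call lost without *met30-6* 25 °C replicate 2, and by -0.80 at 35 °C. Of 8 hypoxic genes, 4 were higher in *met30-6* at 25 °C (2 to 4 with an array left out) and 0 lower, and 6 fell and 0 rose in *met30-6* with the shift, where *COX5B* and *CYC7* rose. Of all genes, 6.94% were higher and 5.95% lower in *met30-6* at 25 °C, and 29.3% fell and 38.8% rose in *met30-6* with the shift. *DAN1*, a cell wall protein gene of anaerobic growth, was higher by 4.11 at 25 °C in *met30-6* (adjusted p = 1.54e-07, limma) and had an interaction of -2.69. *AAC3*, the hypoxic ADP/ATP carrier, had an interaction of -1.25 (adjusted p = 0.00013).

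The retrograde response is known to be raised when mitochondria are impaired, and its list of 10 genes also holds regulators of the response. Of these 10, 3 were higher in *met30-6* at 25 °C and 0 were lower, beside 6.94% and 5.95% of all genes. The list's mean level was 11.92 and 11.94 on those arrays, and 11.72 and 11.59 in PY1 at 25 °C, and no gene was at 0. *CIT2*, the peroxisomal citrate synthase that marks the response, was higher by 0.90 at 25 °C (adjusted p = 0.00026, limma). With the shift, 6 of the 10 rose in each strain, beside 26.2% of all genes in PY1 and 38.8% in *met30-6*. Of the 10, 4 had a positive interaction, and 7 were higher in *met30-6* at 35 °C, with a median of 0.61. Of all genes, 23.7% had a positive interaction and 34% were higher in *met30-6* at 35 °C. The part of the retrograde genes in the levels of the subunits was not tested. The 7 subunits encoded by mitochondrial DNA, among them *COX1*, *COB* and *ATP6*, were not analysed here.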

How the data were processed

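Expression was measured on 8 Affymetrix arrays, 2 in each of 4 groups named in the sample titles. The authors deposited log2 signals as 1 table of 5716 probe sets. The base was inferred from their range, so every fold rests on it. How the signals were background-corrected, summarised, scaled and filtered is not stated, and no detection calls were used. Platform annotation named the probe sets, with 12 symbols updated from a table of the R64 assembly, and 218 unnamed ones were left out. A gene's probe set with the highest mean was kept, which left 5449 genes. No coordinates are given, because the build behind the probes is not stated.

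All genes were fitted with a mean per group in limma 3.58.1 (R 4.3.3, lmFit and eBayes, 4 residual and 2.7 prior degrees of freedom). On data simulated with independent noise, the interaction was called for 52 of 100 genes changed by 0.5 log2. It was called for 88 of 100 genes changed by 1, with 13 false calls among the unchanged genes. Two-sided p-values had a Benjamini-Hochberg adjustment over all genes in each of 5 comparisons, and genes were called under 0.05. The subunits and the 16 gene lists were chosen with earlier results of these data known. All subunits and regulators may be named, and of each other list up to 3 genes with the lowest adjusted p in the interaction and up to 2 in each strain's temperature comparison. Alternatives covered scaling, dim genes, probe sets, variance, the arrays fitted, the replicate number and leaving out each array.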

Additional observations from a re-analysis of the deposited data

Results flagged for a closer look

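The change from 25 to 35 °C differed between the strains for 32 of the 40 subunit genes, by limma's test of the difference itself (interaction, adjusted p under 0.05). Of the 40, 31 were positive and 1 negative, against 23.7% and 24.5% of all genes. The values are the log2 change in *met30-6* minus that in PY1, with 2 arrays in each group. In the entry enzymes they were 0.94 for *NDI1*, 0.32 for *NDE1*, 1.11 for *SDH1*, 1.39 for *SDH2*, 0.77 for *SDH3* and 1.02 for *SDH4*. In cytochrome bc1 they were 0.67 for *COR1*, 0.80 for *QCR2*, 0.86 for *QCR6*, 0.50 for *QCR7*, 0.87 for *QCR8*, 0.66 for *QCR9*, 1.60 for *QCR10*, 0.82 for *RIP1* and 0.97 for *CYT1*. The cytochromes c went apart, with -0.66 for *CYC1* and 1.52 for *CYC7*. In cytochrome oxidase the values were 0.66 for *COX4*, 0.68 for *COX5B*, 0.33 for *COX6*, 0.44 for *COX7*, 0.48 for *COX8*, 0.29 for *COX9* and 0.44 for *COX13*. In the ATP synthase they were 0.43 for *ATP3*, 0.44 for *ATP4*, 0.71 for *ATP7*, 0.60 for *ATP15*, 0.31 for *ATP16* and 0.39 for *ATP17*, and the inhibitors had 1.69 for *INH1* and 1.01 for *STF1*. Adjusted p-values under 0.05 were lost in at least 1 fit without an array for *NDE1*, *QCR7*, *COX9*, *COX13*, *ATP3* and *ATP16*.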

How the results depend on the processing

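For the strain difference at 35 °C, quantile normalisation turned *COR1*, which had been called higher, to -0.007 (adjusted p = 0.903). *COX13*, which had not been called, became lower at -0.207 (adjusted p = 0.00455). The cause was not tested. With array medians centred, 6 subunits fell in PY1 with a median change of 0.03, the median strain difference at 35 °C was 0.178, and the median interaction was 0.691. With quantile normalisation, 9 fell in PY1 with a median of -0.019, 2 fell in *met30-6* with a median of 0.439, 14 were lower in *met30-6* at 35 °C with a median of -0.06, and the median interaction was 0.459. Of all calls for the PY1 shift, 71.5% were rises as deposited, 58.3% with centred medians and 49.8% with quantile normalisation. With only the arrays of the groups compared, 6 rose in PY1. That fit has fewer arrays, and no such separate fit was made for the interaction.

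Leaving out each array in turn, the counts of rises and falls in PY1 ran from 4 to 13 and from 0 to 3, with medians from 0.029 to 0.14. In *met30-6* they ran from 33 to 35 and stayed at 1, with medians from 0.609 to 0.672. The strain difference at 25 °C gave 0 to 1 higher and 20 to 29 lower, with medians from -0.501 to -0.416. That at 35 °C gave 13 to 19 higher and 5 to 9 lower, with medians from 0.058 to 0.16, and the lowest count of 5 came without PY1 35 °C replicate 2. The interaction gave 26 to 34 positive and 1 negative, with medians from 0.559 to 0.666. Among the single-gene values in these fits, 122 lost a call, 22 gained one and 0 changed sign with a call.

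The replicate numbers did not pair the samples, since correlations of same-numbered arrays between groups lay between -0.182 and 0.109. With the replicate number as a block, 7 rose and 3 fell in PY1, 34 and 1 in *met30-6*, 1 was higher and 26 lower at 25 °C, 16 and 7 at 35 °C, and the interaction gave 30 and 1. The number of arrays and the lack of detection calls limit dim genes most, here *NDE2*.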

Other observations

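Outside the 40 genes, *STF2*, *PIC2* and *CBP1* had the largest interaction of their lists. Those lists had few such calls. A positive interaction was called for 1 of 6 other subunits and supercomplex factors, 1 of 5 carriers and 2 of 14 translation activators. A negative one was called for 1 carrier. Of all genes, 23.7% were called positive and 24.5% negative. *STF2* (YGR008C), which encodes a stabilising factor of the complex between the ATP synthase and its inhibitor, read 12.32 and 12.33 in PY1 at 25 °C, 12.70 and 12.55 in PY1 at 35 °C, 12.41 and 12.47 in *met30-6* at 25 °C, and 14.01 and 14.18 in *met30-6* at 35 °C. Heated *met30-6* stood far above the other 6 arrays, and the interaction was 1.36 (adjusted p = 0.00017, limma). *PIC2*, a mitochondrial carrier for phosphate and copper, had an interaction of 1.66 (adjusted p = 0.000114), and *CBP1*, which stabilises the mitochondrial *COB* transcript, had 1.09 (adjusted p = 0.00029).

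Of 8 heme synthesis genes, 0 were higher and 1 was lower in *met30-6* at 25 °C, against 6.94% and 5.95% of all genes. Of the 8, 2 had a positive and 2 a negative interaction, near the background of 23.7% and 24.5% of all genes. *HEM15*, the ferrochelatase that inserts iron, had 0.56 (adjusted p = 0.00216, limma) and *HEM12* had 0.47, while *HEM13*, an oxygen-requiring step known to be raised in hypoxia, had -0.73 (adjusted p = 0.00223) and *HEM14* had -0.52.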
